A study of Mus musculus with 2 samples.

Results

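The mitochondrial chromosome was examined in 2 libraries of immunoprecipitated DNA from mouse embryonic stem (ES) cells. Its members were all aligned reads that the deposited files place on chromosome M of the mouse genome build mm9, chosen by chromosome name alone. There were 384 such reads among 3503839 in the library labelled H2ABbd and 3173 among 9266471 in the library labelled 5mC, in all 3557 of 12770310 reads. H2ABbd is a histone H2A variant, and its chromatin was crosslinked with formaldehyde, sonicated to 200 to 400 bp, precipitated with a rabbit antibody made in the submitters' laboratory (ChIP-seq) and amplified in 20 PCR cycles. For the other library (MeDIP-seq), genomic DNA was sonicated to 100 to 400 bp, ligated to adaptors, denatured, precipitated with the mouse monoclonal antibody 33D3 against 5-methylcytosine and amplified in 15 cycles. The cells of both libraries were mouse ES cells kept in LIF without a feeder layer. The labels name no genotype, strain, cell line or passage. Each antibody had 1 library, and no input library was used here, so no difference below has a replicate check and no test across conditions was made. File names and sample labels disagree on which library belongs to which antibody. The labels were followed, and every direction below rests on them.

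Mitochondrial DNA is a small circular molecule present in many copies in each cell. It is packed by the protein TFAM into nucleoids and not by histones into nucleosomes, and how much 5-methylcytosine it carries has been debated. Its strands differ in base composition and are called heavy and light, and the noncoding control region starts replication of the heavy strand and transcription of both. In the RefSeq annotation of GRCm38.p6 the mouse molecule has 37 genes, of which 13 encode proteins of the respiratory chain and ATP synthase, 22 encode tRNAs and 2 encode rRNAs. The gene order there begins with TrnF and mt-Rnr1 and ends with CYTB, TrnT and TrnP. That annotation is on another build than the reads, so no window below is assigned to a gene, and plus and minus are the strands of the mm9 sequence. For the same reason no sequence is shown.

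Mitochondrial reads were a small share of both libraries. They made up 0.0110% of the reads labelled H2ABbd (exact Clopper-Pearson 95% interval 0.00989 to 0.0121%) and 0.0342% of those labelled 5mC (0.0331 to 0.0355%). A distinct position was a 5′ end and strand counted once however many reads lay on it. The 384 reads labelled H2ABbd lay at 317 distinct positions, and the 3173 labelled 5mC at 2774. Counted this way the shares were 0.0227% (0.0203 to 0.0253%) and 0.0344% (0.0332 to 0.0357%). These intervals, like all others below, cover counting error only, since reads amplified by PCR and not tagged with molecular identifiers need not come from separate molecules.

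Per kb the mitochondrial chromosome was the densest of the 22 chromosomes in both libraries. It held 19.5 distinct positions per kb in the library labelled H2ABbd (Poisson 95% interval 17.4 to 21.7) against an autosomal mean of 0.622, which is 31.3-fold (27.9 to 34.9). The library labelled 5mC had 170.3 per kb (164 to 177) against 3.55, or 47.9-fold (46.1 to 49.7). Autosomal means were taken over 2163690 bins of 1 kb with a read in either library. With all reads kept the fold was 14.8 (13.4 to 16.4) for H2ABbd and 47.5 (45.8 to 49.1) for 5mC. The choice of measure thus moved the first by over 1.5 times and the second hardly. In the library labelled H2ABbd 60.9% of the autosomal reads repeated a position, and 18.0% did so outside the 0.1% of its bins with most reads.

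Few stretches of the autosomes were as dense. The autosomes were divided into 147066 windows of the mitochondrial length, taken as the last base reached by a read, 16293. In the library labelled H2ABbd 10.8% of these windows were at 2 or more times their mean, and 21 windows on 10 chromosomes (0.0143%) held as many distinct positions as the mitochondrial chromosome or more. For 5mC the corresponding values were 3.49% of windows and 6 windows on 3 chromosomes (0.00408%). With all reads kept more windows reached the mitochondrial count, 92 (0.0626%) for H2ABbd and 15 (0.0102%) for 5mC. By distinct positions all 6 were among the 21. They lie on chromosomes 2, 9 and 17, and the densest of them, on chromosome 9 (3014206 to 3030498), had 14255 distinct positions labelled H2ABbd and 16996 labelled 5mC. For 5mC all 6 windows had more reads per distinct position than the mitochondrial chromosome, and for H2ABbd most of the 21 did. In the 6 windows the 5mC library had 2.30 to 99.7 reads per distinct position, against 1.14 on the mitochondrial chromosome. In the 21 windows the H2ABbd library had 1.07 to 286 (median 1.47), against 1.21, and 16 of them were above the mitochondrial value.

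**Figure D1:**
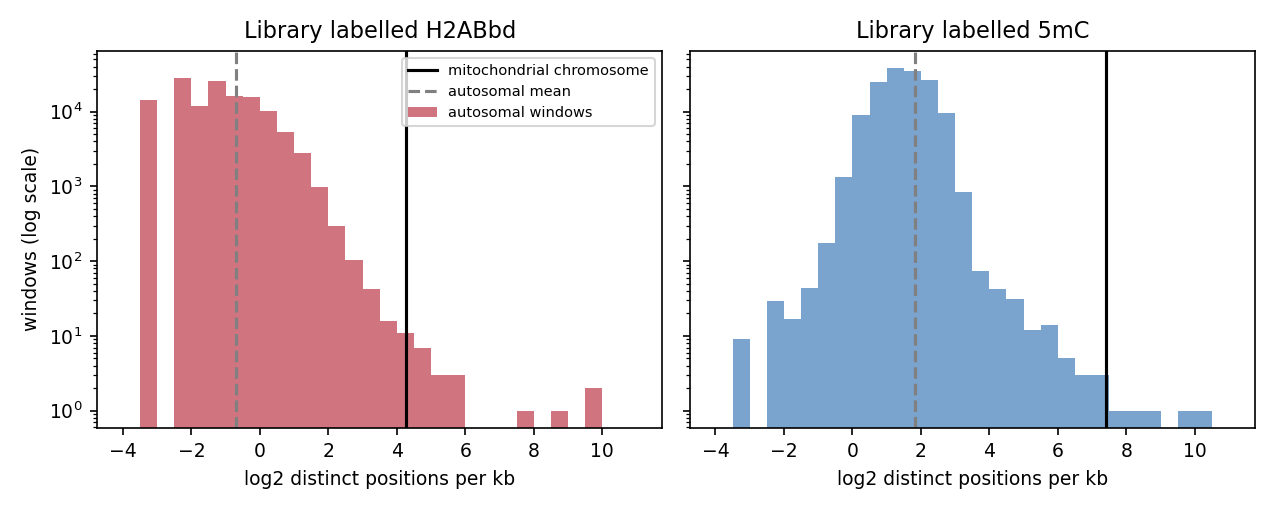
Number of autosomal windows of the mitochondrial length (vertical axis, log scale) by distinct positions per kb (horizontal axis, log2) in each library, with the autosomal mean (dashed) and the mitochondrial chromosome (solid line). The mitochondrial value of 19.5 per kb is reached by 21 of the 147066 windows in the library labelled H2ABbd, and that of 170.3 per kb by 6 in the library labelled 5mC; windows without a read are not drawn.

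Relative to the autosomal mean the mitochondrial chromosome was covered more strongly by the library labelled 5mC. Against the median autosomal window the densities were closer, at 52.8-fold for H2ABbd and 60.3-fold for 5mC. The size of the difference thus depends on the autosomal measure. Divided by the autosomal count, mitochondrial distinct positions labelled 5mC were 1.53 times those labelled H2ABbd (exact interval 1.36 to 1.73). By reads the ratio was 3.203 (2.88 to 3.57), but few windows weighed heavily in the autosomal reads. A single window on chromosome 2 (98491186 to 98507478) held 978921 of the 3441500 autosomal reads labelled H2ABbd and 392855 of the 8879145 labelled 5mC. Single autosomal windows spread far more widely. Over 142941 windows with at least 20 distinct positions in the library with more, the ratio by distinct positions had a median of 1.35. Its 5 to 95% range was 0.448 to 6.48. The ratio of the mitochondrial chromosome was reached or passed by 42.8% of them. Over all autosomal windows the median density labelled H2ABbd was 0.368 distinct positions per kb, against 19.5 on the mitochondrial chromosome. Counting error therefore widens the spread of the window ratios, and this comparison cannot tell how usual the mitochondrial ratio is. For all reads the median window ratio was 2.60 and 39.0% of 143462 windows reached 3.203.

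Most occupied positions of the mitochondrial chromosome held 1 read, and none held more than 4. The library labelled H2ABbd had 259 positions with 1 read, 49 with 2 and 9 with 3. In the other library 2429 positions had 1 read, 299 had 2, 38 had 3 and 8 had 4. Repeats made up 17.4% of the mitochondrial reads labelled H2ABbd (13.8 to 21.6%) and 12.6% of those labelled 5mC (11.4 to 13.8%). Over all autosomal bins the shares were 60.9% and 13.4%, and outside the most covered 0.1% of bins 18.0% and 4.11%. The H2ABbd share on this molecule was thus far below that of all bins and near that without the most covered ones. For 5mC the direction depended on those bins, since the mitochondrial share was below that of all bins by less than its interval and above that without the most covered ones. Repeats grow with the number of reads on so short a chromosome, where 8.53% of the 32504 possible positions were occupied by 5mC reads and 0.975% by H2ABbd reads. At 384 reads, the number in the other library, 377.4 distinct positions and 1.72% repeats are expected from the 5mC reads by exact rarefaction, well below the 17.4% of the library labelled H2ABbd. The latter had 20 amplification cycles against 15, and the part of this in the difference was not tested.

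The most-read positions of the 2 libraries were not the same. All 8 positions with 4 reads in the library labelled 5mC had 0 reads in the other, among them 1935, 1969 and 2413 on the plus strand and 2078 on the minus strand. Reads labelled H2ABbd occupied only 0.975% of the possible positions, so a value of 0 among 8 positions says little about overlap. Of the 9 positions with 3 reads in the library labelled H2ABbd, 5823 (minus), 11117 (plus) and 15942 (minus) had 1 read each in the library labelled 5mC and the other 6 had none. In all, 40 positions were shared, which is 12.6% of the H2ABbd positions (9.17 to 16.8%) and 1.44% of the 5mC positions. For comparison, 8.53% of all possible positions held a 5mC read, and 34 and 25 H2ABbd positions had a 5mC position on the same strand 1 base before and 1 base after. The shared share was 13.8% for the 58 H2ABbd positions with 2 or more reads and 12.4% for the 259 with 1 read, so positions read repeatedly were found in the other library about as often as positions read once. Both libraries came from the same lane of 1 run by their read names, and no read name occurred in both.

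Along the molecule, reads of the library labelled 5mC covered nearly every window, while those labelled H2ABbd were sparse. The chromosome was divided into 326 windows of 50 bp. Mean distinct positions per window for H2ABbd were 0.635 (plus strand) and 0.337 (minus strand), and for 5mC 4.55 and 3.96. With both strands, 139 windows (42.6%) had no H2ABbd position and 7 (2.15%) had no 5mC position, and 5 had neither. Coverage was uneven: the variance of distinct positions over windows was 5.00 times the mean for 5mC and 1.53 times for the sparser H2ABbd positions, where counting error is a larger part of the spread. The 33 densest windows held 26.6% of the 5mC positions and 37.2% of the H2ABbd positions.

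**Figure D2:**
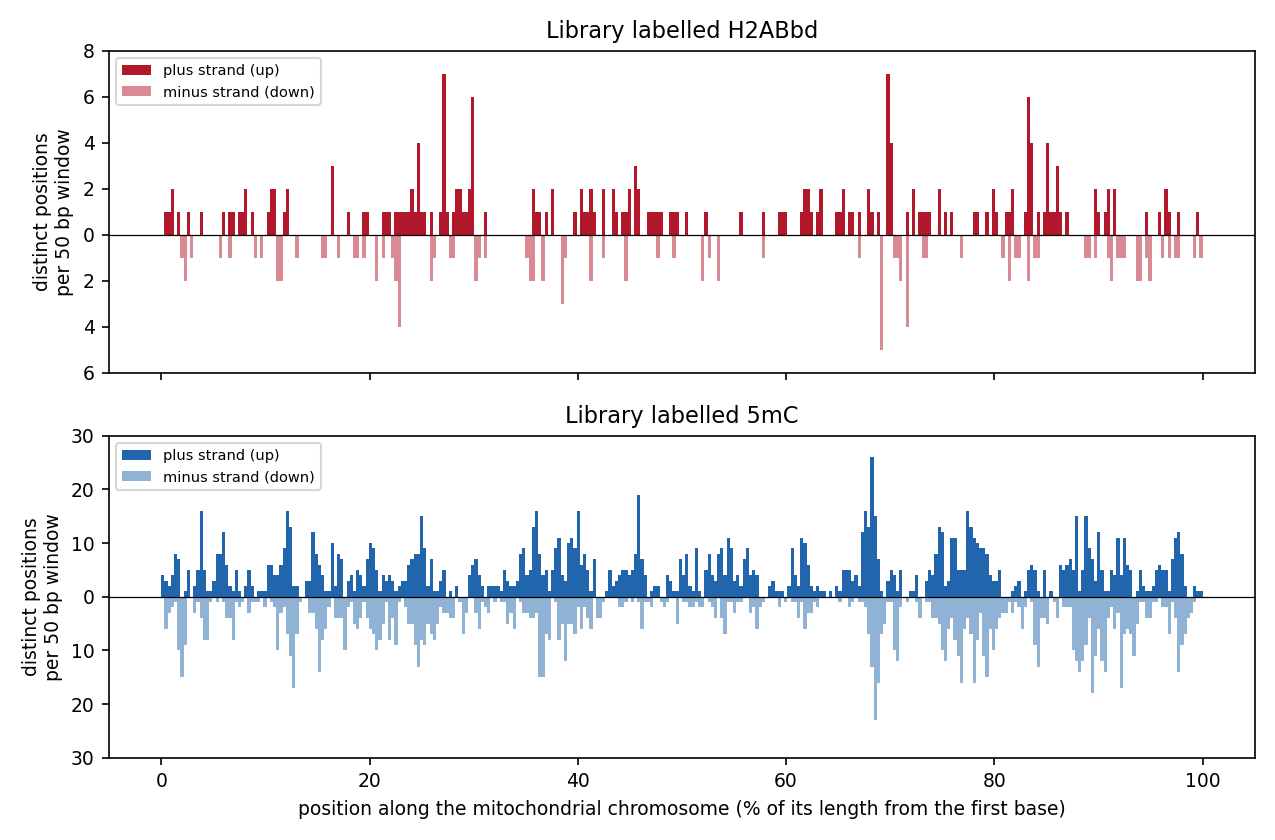
Distinct positions per 50 bp window (vertical axis, plus strand upwards and minus strand downwards, with different scales in the 2 panels) along the mitochondrial chromosome (horizontal axis, percent of its length from the first base). The highest window has 26 positions on the plus strand for 5mC and 7 for H2ABbd, and minus-strand positions labelled 5mC are few between 43.0% and 67.5% of the length.

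In the library labelled 5mC the densest place was a pair of adjoining windows. Between 11101 and 11150 there were 26 positions with 38 reads on the plus strand (5.72 times the mean of that strand, Poisson interval 3.74 to 8.38) and 13 positions on the minus strand. The next window, 11151 to 11200, had 15 positions on the plus strand and 23 with 32 reads on the minus strand (5.80 times, 3.68 to 8.71). In the library labelled H2ABbd the same windows had 1 and 0 positions. On the plus strand 7451 to 7500 followed with 19 positions and 22 reads, and then came 6 windows with 16 positions each, among them 1951 to 2000 and 11001 to 11050, which also had 22 reads. On the minus strand 14551 to 14600 had 18 positions and 2051 to 2100 and 15001 to 15050 had 17 each, while by reads 5951 to 6000 had 25 at 15 positions and 2051 to 2100 and 5901 to 5950 had 24. Some of these windows were dense on 1 strand only: 7451 to 7500 had 1 position on the minus strand, and 2051 to 2100 had 2 on the plus strand. Starts were not shifted, so the 2 ends of a fragment can fall in different windows. The adjoining windows had both strands, with 7 plus and 6 minus positions at 7501 to 7550 and 13 and 11 at 2001 to 2050. Of the 326 windows 38 (11.7%) on the plus strand and 56 (17.2%) on the minus strand were at 2 or more times the mean of their strand.

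In the library labelled H2ABbd the densest windows held few positions. On the plus strand 4401 to 4450 had 7 positions with 14 reads (11.02 times the mean by positions, 4.43 to 22.7), among them 4409 and 4436 with 3 reads each. Window 11351 to 11400 also had 7 positions, with 9 reads, and 4851 to 4900 and 13551 to 13600 had 6 each, with 7 and 8 reads. The densest windows of the minus strand were 11251 to 11300 with 5 positions (14.8 times, 4.81 to 34.6), then 3701 to 3750 and 11651 to 11700 with 4 each, and by reads 5801 to 5850 and 14851 to 14900 followed, with 5 reads each. Of the 4 plus-strand windows with 6 or 7 positions, 3 had none on the minus strand and 13551 to 13600 had 2. These 4 windows held 3 to 6 plus-strand positions labelled 5mC, near the mean of that library. At this depth 41 windows (12.6%) on the plus strand and 77 (23.6%) on the minus strand were at 2 or more times the mean, but on the minus strand a single position suffices for that.

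The longest stretches without reads lay in different places on the 2 strands. No plus-strand position labelled H2ABbd was found from 5101 to 5800 (14 windows), where the library labelled 5mC had 50. With both strands the longest such stretch was 5101 to 5700, where the other library had 65. On the minus strand the longest H2ABbd gap ran over 29 windows, from 9451 to 10900. There the library labelled 5mC had 29 minus-strand positions, or 20.0 per kb, against 85 on the plus strand. Its own longest minus-strand gap, 10301 to 10600 (6 windows), lay inside that of the library labelled H2ABbd. In the 1450 bp from 9451 to 10900 the library labelled H2ABbd had 18 plus-strand positions and 0 on the minus strand (Poisson interval 0 to 2.54 per kb).

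With the strands summed, the libraries did not follow each other along the molecule. Over 325 full windows of 50 bp with both strands, distinct positions of the libraries had a Pearson r of -0.05 and a Spearman rho of -0.03. In 16 segments of 1 kb r was -0.04 and rho 0.05. For the strands taken alone the signs differed in these 16 segments, with r = -0.36 and rho = -0.32 on the plus strand and r = 0.34 and rho = 0.42 on the minus strand. With only 16 segments, values of this size cannot be told from no relation. In 50 bp windows r was 0.03 on the plus and 0.09 on the minus strand. Windows empty of H2ABbd positions had a mean of 8.47 5mC positions and occupied ones 8.53. The strands of the library labelled 5mC followed each other more closely in wider windows, with r = 0.23 in 50 bp windows, 0.58 in 200 bp and 0.68 in 1 kb. For the strands of the library labelled H2ABbd r was -0.05, 0.09 and 0.27. Windows of 1 library share its depth and amplification and are not replicates, and the counts labelled H2ABbd are too low in 50 bp for r to tell a weak relation from none.

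In segments of 1 kb, counted from the first base and with the last holding 293 bp, both libraries were uneven. The 16 full segments held 6 to 39 distinct positions labelled H2ABbd (median 19.5) and 85 to 321 labelled 5mC (median 167). Of the 17 segments 3 were above the mean of the molecule by their Poisson interval and 4 below it in the library labelled H2ABbd. For 5mC these numbers were 5 and 7, with intervals not adjusted for the number of segments. Highest for H2ABbd were 4001 to 5000, with 39 positions (2.00 times the mean, 1.43 to 2.74), 11001 to 12000, with 36, and 13001 to 14000, with 35. Segment 9001 to 10000 was lowest in that library with 6 (0.31 times, 0.11 to 0.67), and among full segments also in the library labelled 5mC, with 85 (0.50, 0.40 to 0.62). Highest for 5mC were 12001 to 13000, with 321 positions (1.89 times, 1.68 to 2.10), and 14001 to 15000, with 270. Only segment 11001 to 12000 was above the mean in both by these intervals, and segments 8001 to 9000 and 9001 to 10000 were below it in both. The short last segment, 16001 to 16293, had 3 and 21 positions, and reads crossing the start of the numbering cannot be placed on a linear sequence.

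**Figure D3:**
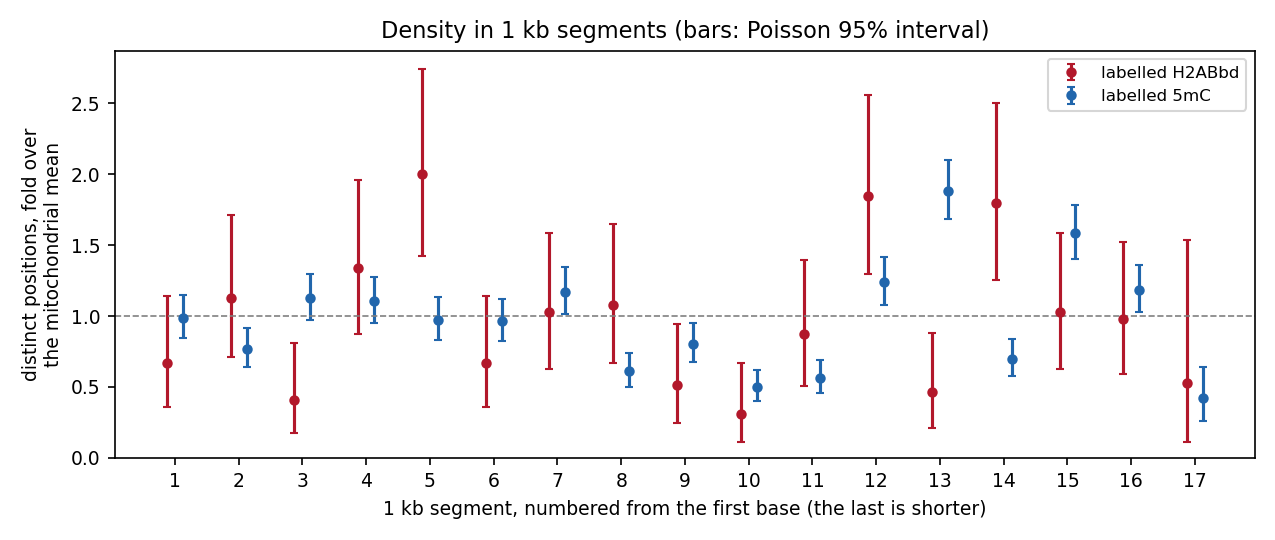
Distinct positions in 1 kb segments of the mitochondrial chromosome as a fold over the mean of the molecule (vertical axis, bars are Poisson 95% intervals) by segment number (horizontal axis). Segments 13 and 14 go opposite ways in the 2 libraries, at 0.46 and 1.80 times the mean for H2ABbd and 1.89 and 0.70 times for 5mC.

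A few segments differed between the libraries beyond counting error. The share of a segment in the H2ABbd positions was 2.57 times its share in the 5mC positions at 13001 to 14000 (35 against 119 positions, exact interval 1.71 to 3.78), 2.06 times at 4001 to 5000 (39 against 166, 1.41 to 2.93), 1.77 times at 7001 to 8000 (21 against 104, 1.05 to 2.84) and 1.49 times at 11001 to 12000 (36 against 211, 1.02 to 2.13). In the other direction it was 0.25 times at 12001 to 13000 (9 against 321, 0.11 to 0.47) and 0.36 times at 2001 to 3000 (8 against 192, 0.16 to 0.73). The strongest differences thus adjoined, with the library labelled 5mC at its highest and that labelled H2ABbd low in 12001 to 13000, and the reverse in the next segment. With intervals adjusted for 17 segments 13001 to 14000, 4001 to 5000, 12001 to 13000 and 2001 to 3000 still excluded 1. In 2 kb segments 2 stood above 1 and 0 below, and 12001 to 13000 then falls together with 13001 to 14000.

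Single windows of 50 bp were too sparse for this comparison. At least 20 distinct positions were reached in 24 windows, always in the library labelled 5mC, since no window held more than 8 labelled H2ABbd. Of these 24 windows 19 (79.2%) had a 5mC share 2 or more times the H2ABbd share and 0 (0%) the reverse. That direction follows from the choice of windows. The lowest ratio was shared by 9 windows with 0 H2ABbd positions and 20 to 38 labelled 5mC. Among them 11151 to 11200, with 38, was the only one of the 24 windows whose interval excluded 1 (upper limit 0.892). The intervals are not adjusted for 24 windows, and all 24 passed through their 5mC counts. This interval therefore gives no support for a difference at that window. The next by 5mC positions were 14301 to 14350, with 27 (upper limit 1.28), and 14551 to 14600, with 25 (1.39). The highest ratio was at 4001 to 4050, with 21 positions labelled 5mC and 4 labelled H2ABbd (1.67, 0.416 to 4.94), followed by 7451 to 7500 and 11051 to 11100, each with 20 and 2 (0.875, 0.0992 to 3.602).

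Reads on the plus strand were in excess in the library labelled H2ABbd. It had 207 distinct positions on the plus strand and 110 on the minus strand, a plus share of 65.3% (59.8 to 70.5%), against 54.3% over the autosomes of the same library. The library labelled 5mC had 1482 and 1292, a plus share of 53.4% (51.5 to 55.3%), against 52.7% over the autosomes. The strand shares of the 2 libraries did not overlap in their intervals. Among 153 autosomal windows with at least 100 distinct positions labelled H2ABbd the plus share had a 5 to 95% range of 21.9 to 81.4%, and 15.7% of them were at or above the mitochondrial share. The excess on the whole molecule therefore lay within the spread of these 153 windows. Of the 21 autosomal windows as dense as the mitochondrial chromosome or denser, however, 0 reached 65.3%. Their plus share was 3.36 to 60.7% (median 47.7%). Among 7051 autosomal windows with at least 100 distinct positions labelled 5mC the 5 to 95% range was 43.1 to 60.6%, and 32.3% were at or above 53.4%. Of the 6 windows as dense for 5mC, 0 reached that share, with values of 44.8 to 50.5%.

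The strand share changed along the molecule, and most clearly in the library labelled 5mC. Its minus strand was sparse in 4 adjoining segments, where the plus share was 79.8% (7001 to 8000, 70.8 to 87.0%), 71.5% (8001 to 9000, 63.2 to 78.9%), 70.6% (9001 to 10000, 59.7 to 80.0%) and 77.1% (10001 to 11000, 67.4 to 85.0%). Together they held 315 positions on the plus strand and 107 on the minus strand. Per kb the plus strand had 78.8 positions there and 94.9 in the rest of the molecule, while the minus strand had 26.8 against 96.4. The low total of this stretch was thus mainly a low count of minus-strand reads. A stretch from 7001 to 11000 was chosen after these values were seen, so it is given without a test. In the same stretch the library labelled H2ABbd had 43 positions on the plus strand and 11 on the minus strand, a plus share of 79.6% against 62.4% in the rest. Its minus strand had 2.75 positions per kb there against 8.05 elsewhere, and its plus strand 10.8 against 13.3. Its segments were not alike: plus and minus counts were 18 and 3 in 7001 to 8000, 5 and 1 in 9001 to 10000 and 16 and 1 in 10001 to 11000, but 4 and 6 in 8001 to 9000, which holds 6 of the 11 minus-strand positions.

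Other segments tilted in 1 library only or in opposite directions. The plus share was above 50% by its interval in 5 of the 17 segments in each library, and 7001 to 8000 and 10001 to 11000 were among the 5 in both. It was below 50% in 1 segment of the library labelled 5mC, 13001 to 14000, with 41 plus and 78 minus positions (34.5%, 26.0 to 43.7%). There the library labelled H2ABbd had 26 plus and 9 minus positions (74.3%, 56.7 to 87.5%), and the intervals do not overlap. In 4001 to 5000, its densest segment, it had 31 plus and 8 minus positions (79.5%, 63.5 to 90.7%), against 75 and 91 (45.2%, 37.5 to 53.1%) in the library labelled 5mC. The segments richest in H2ABbd positions relative to 5mC, 4001 to 5000 and 13001 to 14000, thus had a plus-strand excess in the library labelled H2ABbd. This was not particular to them. Both intervals include its plus share on the whole molecule, 65.3%. The segment poorest in H2ABbd positions relative to 5mC, 12001 to 13000, had 8 plus and 1 minus positions (88.9%, 51.8 to 99.7%).

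**Figure D4:**
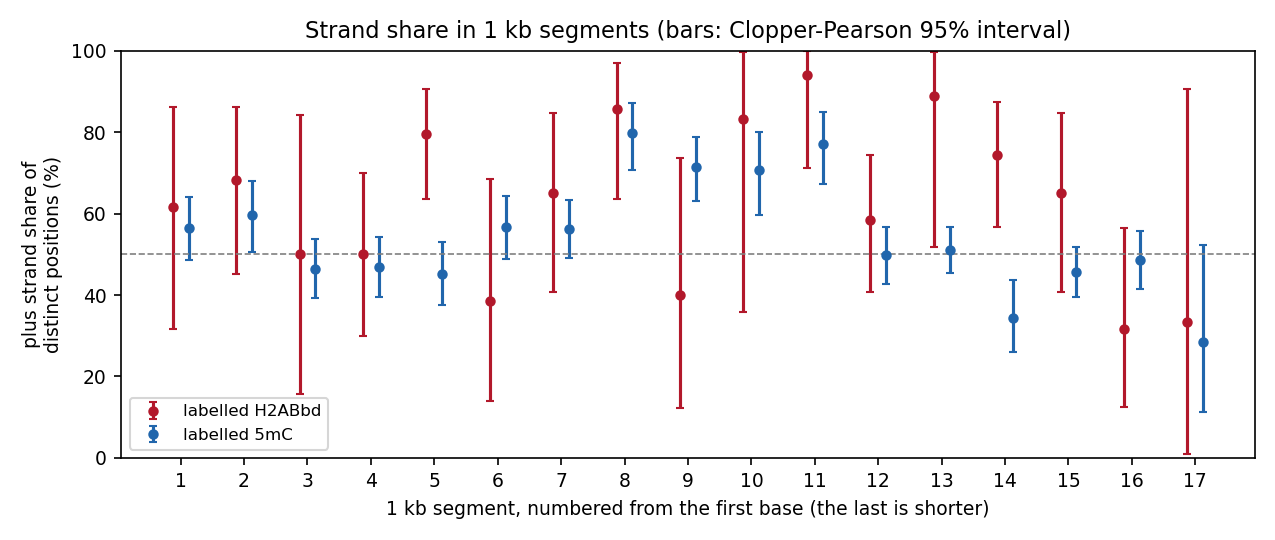
Plus-strand share of distinct positions (vertical axis, percent, bars are Clopper-Pearson 95% intervals) in 1 kb segments (horizontal axis, segment number from the first base). In the library labelled 5mC segments 8 to 11 stand at 70.6 to 79.8% and segment 14 at 34.5%.

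Read starts on opposite strands were most frequent at a distance near that of the autosomes for the library labelled 5mC. Its pairs of a plus start with a minus start downstream were most frequent at 80 to 89 bp, at 2.00 times the level of 600 to 999 bp, and over the autosomes, without the 0.1% most covered bins, at 70 to 79 bp and 1.95 times. The pairs labelled H2ABbd were most frequent at 140 to 149 bp on the mitochondrial chromosome, with 28 pairs at 2.24 times, and at 110 to 119 bp and 4.37 times over the autosomes. In 50 bp classes the mitochondrial level was 1.55 at 100 to 149 bp and 1.49 at 150 to 199 bp, against 4.28 and 3.597 over the autosomes. For 5mC the level was 1.94 at 50 to 99 bp against 1.89 over the autosomes. It was 1.29 against 1.14 at 200 to 249 bp and 1.28 against 1.08 at 250 to 299 bp. The clustering of plus and minus starts at fragment length was therefore lower on the mitochondrial chromosome than on the autosomes in the library labelled H2ABbd. In the library labelled 5mC the level was similar to that of the autosomes near the peak and higher at these longer distances. Each start enters several pairs, so these values carry no interval, and the level on so dense a molecule is also set by pairs from separate fragments.

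**Figure D5:**
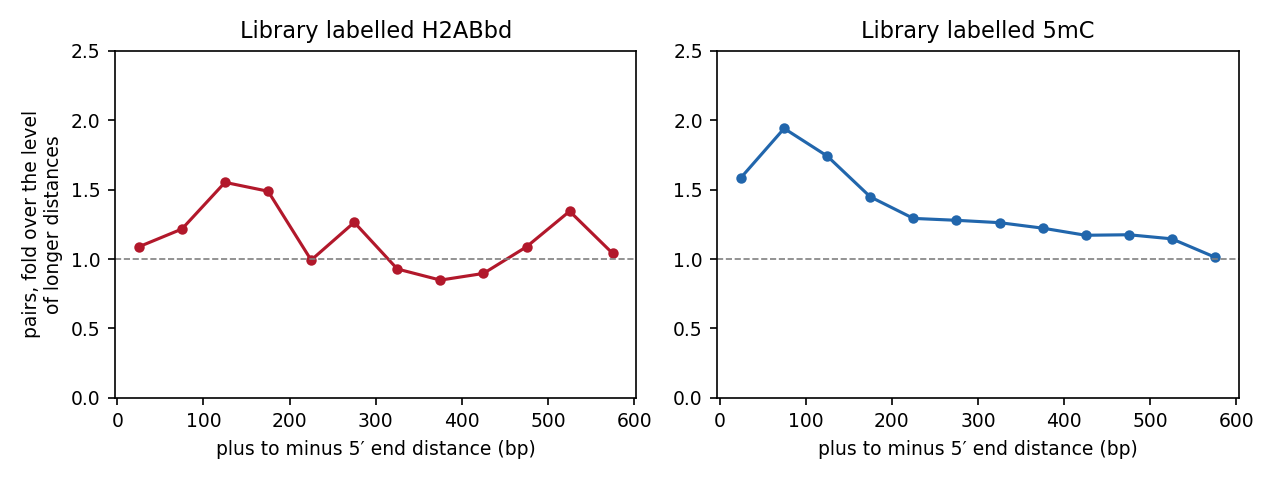
Pairs of a plus-strand start with a minus-strand start downstream on the mitochondrial chromosome, as a fold over the level at 600 to 999 bp (vertical axis), by their distance in 50 bp classes (horizontal axis, bp). The library labelled 5mC peaks at 50 to 99 bp with 1.94 and the library labelled H2ABbd at 100 to 149 bp with 1.55.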

How the data were processed

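FastQC, Bowtie and the build mm9 are named in the submitters' processing notes for quality control and alignment. Not given in the sources used here are versions, mismatches allowed and the placement of reads with several possible positions, such as those that also match nuclear copies of mitochondrial DNA. The deposited files give, per aligned read of 42 bp, its position, strand and name. The deposited score column, 255 on regular lines, was not used. Lines with broken separators (8 and 1, none on chromosome M) were left out. From the lines, reads and distinct positions were counted on chromosome M per strand in 50 bp windows and 1 kb segments, 1-based, at the 5′ end without shift, and over the autosomes in 1 kb bins. For shares and ratios the 95% intervals are exact Clopper-Pearson, and for counts exact Poisson. Expected distinct positions at equal reads come from exact rarefaction. The counting and interval functions were tested on simulated data. No gene was tested. Named windows are, per library and strand, the 3 with most positions and the 3 with most reads (with ties, named in part), the longest empty runs, and the highest and lowest 3 library ratios with at least 20 positions (of 9 windows tied at a ratio of 0, the 3 with most 5mC positions, chosen after their values were seen). The members, windows and lists were chosen with earlier results of these data known. All 31 listed alternatives were run, and the segment ratios with their 5 alternatives were added later. Computation used Python 3.11.15, numpy 2.4.6, scipy 1.17.1 and matplotlib 3.10.9.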

Additional observations from a re-analysis of the deposited data

How the results depend on the processing

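Of 101 values under alternatives 66 stayed within the interval, or 1.5 times the count, of the reported value and 35 did not. The cause of these moves was not tested unless the alternative itself sets it. With all reads the H2ABbd share was 0.0110% and its density 14.8-fold. Against the median autosomal window the density was 52.8-fold (H2ABbd) and 60.3-fold (5mC), over the whole span of the autosomes 53.5-fold (5mC), and without the 5% most covered windows 24.998-fold and 42.9-fold, with 5mC repeats at 11.2%, which follows from leaving out dense windows. At equal reads the 5mC repeats were 1.72%. The r between strands was 0.40 in 100 bp and 0.58 in 200 bp (5mC), and 0.095 in 200 bp and 0.072 with starts moved 100 bp (H2ABbd). Windows at 2-fold or more were 24.8% in 25 bp and 19.02% with all reads (H2ABbd plus), 13.0% in 25 bp and 17.8% in 100 bp (H2ABbd minus) and 7.32% in 200 bp (5mC plus). At 3-fold they were 7.67% (H2ABbd minus), 3.68% (5mC plus) and 7.36% (5mC minus). Windows with a higher H2ABbd share numbered 2 in 100 bp, 5 in 200 bp and 1 with starts moved, and those with a higher 5mC share 32 in 100 bp, 31 with all reads, 11 at 3-fold, and 1 on each strand alone, where 1 window was tested. In 20 bp classes the fullest spacing began at 160 bp (H2ABbd) and 60 bp (5mC). Segments with a higher H2ABbd share numbered 2 in 2 kb and 2 with adjusted intervals, and those with a higher 5mC share 5 in 500 bp and 0 in 2 kb. The segment comparison was chosen after seeing the data. With 317 positions labelled H2ABbd, 50 bp windows of that library show counting error above all. No paired analysis was possible because each group has 1 library.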
